A study of Homo sapiens with 6 samples.

Results

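The genes described here are 30 genes of the p53 pathway: the p53 relatives TP63 and TP73, the negative regulators MDM2, MDM4 and PPM1D, and 25 genes known as transcriptional targets of p53. They were taken by gene symbol, not by their values, from the 27968 genes in the gene tables. H23, an established line grown from a human lung adenocarcinoma, was transfected with siRNA against HOTAIR-N or with control siRNA, and total RNA was taken 48 h later for RNA sequencing. HOTAIR is a long non-coding RNA of the HOXC locus, and the labels use the name HOTAIR-N without defining it. Each siRNA was given in 3 independent transfections, so there were 6 libraries in all. The groups share the cell line, the culture medium and the transfection reagent RNAiMAX, and differ by the siRNA named in the labels. The labels do not say how many siRNAs against HOTAIR-N were used, and everything below refers to 1 cell line at 1 time point.

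p53 is a tetrameric transcription factor that accumulates when DNA is damaged or oncogenes are active, and it switches on genes that halt the cell cycle, repair DNA, adjust redox metabolism or kill the cell. Its relatives p63 and p73 bind the same DNA element and share many of these targets. MDM2 and MDM4 bind and restrain p53, and the phosphatase encoded by PPM1D shuts the damage signal off. H23 cells are known to carry a mutated p53, and many of the genes below also respond to other inputs, so none of them reads p53 activity alone.

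The p53 response element is built from 2 half-sites of 10 bases, each with a fixed C and G near its middle, with a short spacer between them. Promoter windows from 250 bases before to 50 bases after each transcription start (RefSeq, GRCh38.p14) were found for 25 of the 30 genes, 37 windows in all. RRM2B, CMBL, TP53INP1, PHLDA3 and GADD45A had no window and were not searched. Each window found was searched for the element with the C and G of both half-sites intact. A spacer of up to 13 bases and at most 2 mismatches elsewhere were allowed. The half-site is its own reverse complement, so 1 search covers both strands. The element was present in windows of 5 of the 25 genes, 6 of 37 windows, against 2.93% of all 35116 windows and 3.62% of 27305 genes. A match is a description of letters, not evidence of binding, and elements outside these windows, such as those in first introns, were not searched. The matched stretches are shown because they had the fewest mismatches in the windows of genes whose values follow, with the half-sites in capitals.
TP73, internal start, chr1:3690576-3690635, plus strand: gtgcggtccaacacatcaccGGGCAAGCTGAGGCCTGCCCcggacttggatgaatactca
MDM2, second start, chr12:68808903-68808962, plus strand: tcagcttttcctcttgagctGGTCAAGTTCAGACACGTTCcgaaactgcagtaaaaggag
DDB2, chr11:47214959-47215003, plus strand: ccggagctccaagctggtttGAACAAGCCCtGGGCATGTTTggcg
FDXR, chr17:74872976-74873045, minus strand: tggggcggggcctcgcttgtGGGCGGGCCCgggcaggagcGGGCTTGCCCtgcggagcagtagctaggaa
AEN, chr15:88621286-88621345, plus strand: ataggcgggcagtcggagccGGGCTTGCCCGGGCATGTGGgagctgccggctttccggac

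The DDB2 element was the only one of the 5 with 0 mismatches, a match found in 10 of all 35116 windows (0.0285%). Its first base is base 6 when the RefSeq start is counted as base 1, and its half-sites are parted by 1 base. In MDM2, TP73 and AEN the half-sites adjoin, and the element begins 94, 76 and 34 bases upstream of the RefSeq start used for the window. In FDXR the element begins 31 bases upstream of that start and holds a spacer of 10 bases. Another MDM2 window, built on chr12:68809024, holds the same element 101 bases upstream. Starts matched to counted isoforms can differ from these. For AEN the RefSeq start is chr15:88621340, while isoform NM_022767 was matched to chr15:88621296. The AEN element lies downstream of that isoform start. For MDM2, NM_001145337 was matched to chr12:68809002, not chr12:68809017. A single exact half-site was present in 6.63% of all windows, among them 1 window of PLK2, 132 bases upstream of the RefSeq start of that window, and 1 of SESN1, 49 bases upstream of the third start.

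Library totals ran from 34715341 to 36578681 expected counts with control siRNA and from 32715361 to 35329948 with HOTAIR-N siRNA. HOTAIR, the gene that the series title names for the RNAi, had counts of 169, 148 and 202 with control siRNA against 88, 74 and 82 with HOTAIR-N siRNA. Its level with HOTAIR-N siRNA was 48.7% of control in CPM, read counts scaled to library size, with no overlap between the groups (log2 fold change -1.04, SE 0.14, adjusted p = 1.32e-05; exact two-sided permutation test p = 0.1, the smallest that 3 against 3 allows). The 8 lung epithelial markers summed to between 3717 and 4425 TPM, a level per transcript length and library, with control siRNA and to between 2924 and 3295 with HOTAIR-N siRNA, nearly all of it keratins KRT8 and KRT18. KRT18 alone of the 8 fell (2592 to 1535 TPM), while CDH1 (12.01 to 24.5 TPM), KRT7 (1.31 to 2.64 TPM) and NKX2-1 (1.26 to 2.49 TPM) rose. EPCAM, KRT8, KRT19 and NAPSA did not pass. The 8 markers of leukocytes, endothelium and fibroblasts summed to at most 5.78 TPM in any library, and CD3E was at 0 in all 6. The 3 fibroblast markers among them summed to 1.47 to 1.71 TPM with control siRNA and 2.66 to 3.04 with HOTAIR-N siRNA, of which LUM alone rose (1.41 to 2.66 TPM). DCN was at or near 0 and PDGFRB did not pass. Leukocyte markers, nearly all CD14, summed to 2.54 to 2.96 TPM against 1.73 to 2.51, and endothelial markers to 0.14 to 0.24 TPM against 0.23 to 0.31. The part of these shifts in the results below was not tested. Replicates of control siRNA differed more among themselves than those of HOTAIR-N siRNA: chi-square per degree of freedom between pairs was 7.05 to 14.8 in the first and 2.06 to 5.89 in the second.

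Of the 30 genes, 29 had enough reads to be tested, and TP63 did not. With HOTAIR-N siRNA 12 rose and 9 fell at an adjusted p under 0.05, and 8 did not pass. Among all 15072 genes tested 28.7% were called higher, 28.8% lower and 57.5% in either direction, so a call alone does not set a gene apart in these libraries. The shares among the 29 were 41.4% higher and 31.0% lower, and their median log2 fold change was 0.09, beside 0.01 over all genes. The changes were modest: log2 fold changes ran from -0.50 (TP73) to 0.83 (BTG2), and the median size was 0.36, beside 0.29 over all genes. In a test against a fold of 1.5, BTG2 and PLK2 passed, both higher, and none of the other 27 did. That is 6.90% of the 29, where 11.3% of all genes passed, 5.51% higher and 5.77% lower. SFN also passed without control 1, and with DESeq2 PLK2 alone did. Groups did not overlap in CPM for 21 of the 29, a state found in 62.9% of all genes. The text gives TPM levels, which are per length and can be compared between genes. Fold changes, SEs and adjusted p-values come from edgeR on counts. These are bulk RNA values, so fewer cells that express a gene and less RNA per cell cannot be told apart, and p-values measure the spread between these transfections.

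**Figure D1:**
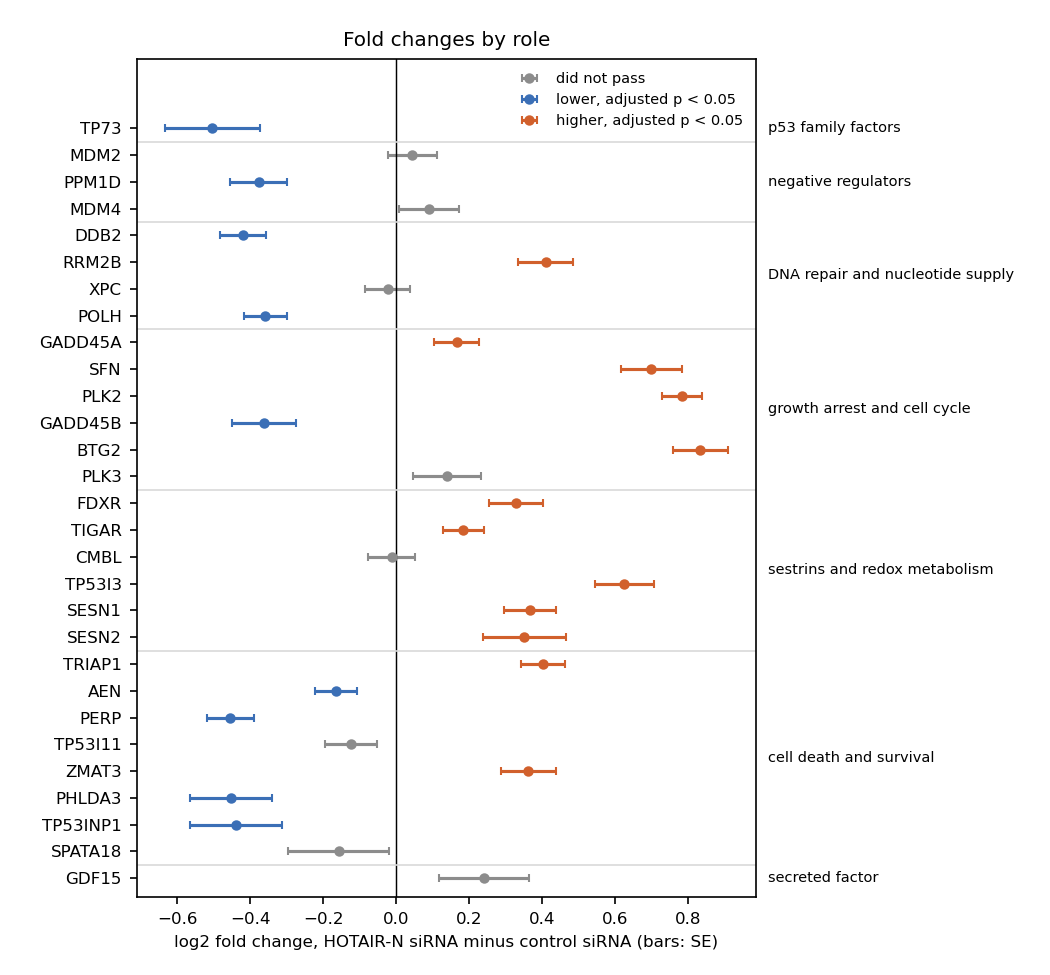
Log2 fold change of the 29 tested genes, HOTAIR-N siRNA minus control siRNA (3 libraries each, edgeR on counts), with bars of 1 SE, ordered by role. Growth arrest and redox genes lie mostly to the right, with BTG2 at 0.83 and PLK2 at 0.78, while TP73 lies farthest to the left at -0.50.

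TP63 and TP73 encode the p53 relatives. TP63, which maintains basal epithelial cells, was all but silent, with 4, 6 and 6 counts in the control libraries and 4, 2 and 5 with HOTAIR-N siRNA, or at most 0.08 TPM in any library. TP73 was low but present, at 3.43, 3.31 and 2.59 TPM in the control libraries and 1.75, 2.53 and 2.18 with HOTAIR-N siRNA. All 3 HOTAIR-N siRNA libraries lay below all 3 control libraries, although the highest of the former and the lowest of the latter were close. TP73 fell to 0.705 of control (95% interval 0.590 to 0.843, log2 fold change -0.50, SE 0.13, adjusted p = 0.00415). It shares 633 bases of exon with the antisense gene TP73-AS1 and was the only 1 of the 30 with fractional expected counts. TP73-AS1 was more abundant and also lower with HOTAIR-N siRNA, with means of 17.35 TPM with control siRNA and 14.27 with HOTAIR-N siRNA. Whether the authors' counting used strand is not given in the sources used here, and the part of TP73-AS1 in the TP73 values was not tested.

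TP73 has an upstream start, which gives the full-length protein, and internal starts, of which the one at chr1:3690672 follows the element shown above and gives proteins without the transactivation domain. Isoforms from the upstream start held 93.6% of TP73 in the control libraries and 83.4% with HOTAIR-N siRNA. Their summed level was 3.43, 2.70 and 2.59 TPM against 1.75, 1.45 and 2.18 TPM. The internal start was listed at 0 in 5 libraries and at 0.34 TPM in 1 control library, and the third start was at 0.26 TPM in 1 control library and at 1.07 TPM in HOTAIR-N siRNA 2. Most TP73 reads were thus assigned to the full-length start in both groups. The most abundant isoform, NM_005427, did not pass on its own (log2 fold change -0.77, adjusted p = 0.0731).

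The negative regulators split. MDM2, the ubiquitin ligase that marks p53 for destruction, was at 37.6, 48.1 and 45.3 TPM in the control libraries and 42.4, 42.9 and 45.6 with HOTAIR-N siRNA. It shares 133 bases of exon with a gene on the other strand, also named CPM, which had means of 2.07 TPM with control siRNA and 5.07 with HOTAIR-N siRNA. The MDM2 groups overlapped, and the MDM2 fold was 1.03 with a 95% interval of 0.941 to 1.13 (adjusted p = 0.593). MDM4, its partner, was at 6.88 ± 1.04 TPM (SD, n = 3) with control siRNA and 7.10 ± 0.312 with HOTAIR-N siRNA. Its fold of 1.06 had an interval of 0.951 to 1.19 and did not pass (adjusted p = 0.371). PPM1D, the phosphatase WIP1, was at 9.91, 12.2 and 11.3 TPM in the control libraries and at 8.85, 7.89 and 8.21 with HOTAIR-N siRNA. It fell to 0.770 of control, with no overlap between the groups (log2 fold change -0.38, SE 0.08, adjusted p = 0.000809).

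MDM2 has an upstream start and a second start in its first intron, the one p53 is known to drive and the one that follows the element shown above. The upstream start gave 37.8 ± 3.14 TPM with control siRNA and 39.2 ± 1.22 with HOTAIR-N siRNA. Isoforms of the second start were at 3.5, 8.82 and 5.53 TPM against 4.54, 3.12 and 5.45, a share of the gene of 13.6% and 10.0%. The values overlap, and the leading isoform of that start, NM_001145337, did not pass (log2 fold change -0.47, SE 0.38, adjusted p = 0.494). For MDM4, 75.1, 92.7 and 91.3% of the control level and 81.9, 86.4 and 87.1% of the HOTAIR-N siRNA level were assigned to NM_001278516, which is 68 bases shorter than the main isoform NM_002393 and codes for 140 residues in place of 490. The main isoform was listed at 0 in 2 control libraries, and the error of the authors' split between these near-identical isoforms is not given.

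**Figure D2:**
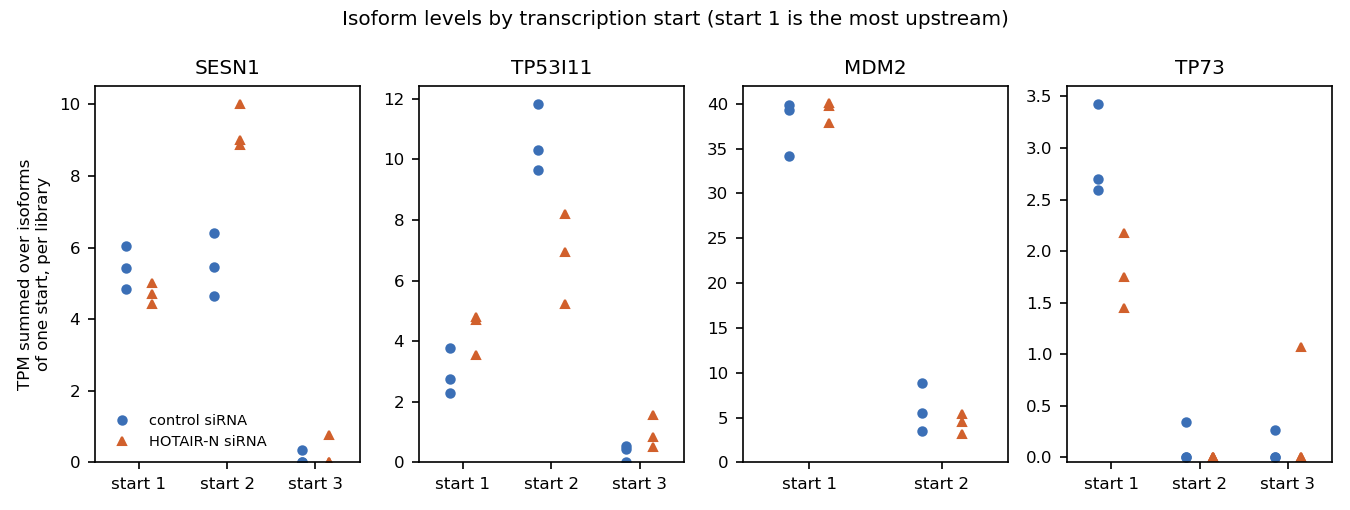
Isoform TPM summed by transcription start in each library, control siRNA (circles) and HOTAIR-N siRNA (triangles), for SESN1, TP53I11, MDM2 and TP73, with start 1 the most upstream. In SESN1 the second start was at 8.87 to 10.01 TPM with HOTAIR-N siRNA, above the 4.65 to 6.41 TPM of control, while MDM2 values overlap at both starts.

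The repair and nucleotide genes moved in different directions. DDB2, the damage sensor of nucleotide excision repair that binds ultraviolet lesions and carries the element with 0 mismatches, was at 66.7, 63.7 and 62.8 TPM in the control libraries and at 45.7, 47.4 and 45.3 with HOTAIR-N siRNA. Both groups were tight and well apart, and DDB2 fell to 0.748 of control (95% interval 0.687 to 0.814, log2 fold change -0.42, SE 0.06, adjusted p = 4.06e-05). POLH, the translesion polymerase that copies past such lesions, fell from 12.3 ± 0.631 to 9.30 ± 0.265 TPM (log2 fold change -0.36, adjusted p = 0.0001). RRM2B, the p53-inducible small subunit of ribonucleotide reductase, went the other way. It was at 19.7, 26.4 and 22.6 TPM with control siRNA and at 29.7, 29.2 and 29.5 with HOTAIR-N siRNA, a rise of 1.33-fold (log2 fold change 0.41, adjusted p = 0.000281). XPC, which recognises distorted DNA in the same repair pathway as DDB2, had a fold of 0.984 (95% interval 0.905 to 1.07, adjusted p = 0.758), and it shares 318 bases of exon with the more abundant LSM3 on the other strand.

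The largest rises of the 29 were among the growth arrest genes, of which 4 of 6 rose and 1 fell, where 28.7% of all genes were called higher and 28.8% lower. BTG2, an antiproliferative cofactor of mRNA deadenylation, was at 6.38, 7.13 and 6.89 TPM in the control libraries and 11.3, 11.9 and 12.1 with HOTAIR-N siRNA. The lowest of the latter was well above the highest control, and the rise was 1.78-fold (95% interval 1.61 to 1.97, log2 fold change 0.83, SE 0.08, adjusted p = 2.91e-07). PLK2, a polo-like kinase with a role in centriole duplication and stress checkpoints, was at 47.5, 49.9 and 46.7 TPM against 82.5, 79.8 and 78.2. That is a 1.72-fold rise with little spread in either group (log2 fold change 0.78, SE 0.06, adjusted p = 2.36e-08). SFN, the 14-3-3 sigma protein that holds cyclin B1 and CDK1 out of the nucleus, was at 74.8, 63.8 and 60.2 TPM against 97.3, 105.6 and 109.9. SFN rose 1.62-fold with no overlap (log2 fold change 0.70, adjusted p = 4.94e-06). Among all tested genes 87.3% had a smaller log2 fold change in size than BTG2, so these rises lie in the upper range of the whole table but not at its end.

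GADD45A and GADD45B, paralogous stress proteins that bind PCNA and p38 pathway kinases, moved in opposite directions. GADD45A went from 102.2 ± 2.43 to 110.6 ± 3.93 TPM, the smallest rise of the 12 called (log2 fold change 0.17, SE 0.06, adjusted p = 0.0337). That call was lost without control 2, control 3, HOTAIR-N siRNA 1 or HOTAIR-N siRNA 3 (adjusted p = 0.0727 to 0.148). GADD45B was at 46.3, 38.7 and 39.2 TPM with control siRNA and 30.5, 32.7 and 30.4 with HOTAIR-N siRNA, so control 1 stood above its fellows and the groups did not overlap. It fell to 0.777 of control (log2 fold change -0.36, adjusted p = 0.00239). PLK3, a damage-activated relative of PLK2, was at 6.21 to 7.15 TPM against 6.38 to 7.74 TPM, with a fold of 1.10 (95% interval 0.971 to 1.25, adjusted p = 0.214). PLK3 shares 78 bases of exon with TCTEX1D4 on the other strand.

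Of the 6 sestrin and redox genes 5 rose and none fell, beside 28.7% of all genes called higher and 28.8% lower. The group is small, and the calls of SESN2 and TIGAR were lost when certain single libraries were left out. SESN1 and SESN2 encode sestrins, leucine-sensing inhibitors of the kinase complex mTORC1. SESN1 was at 10.1, 11.5 and 11.6 TPM in the control libraries and at 14.0, 14.4 and 14.3 with HOTAIR-N siRNA. The groups did not overlap, and SESN1 rose 1.29-fold (log2 fold change 0.37, SE 0.07, adjusted p = 0.000449). SESN2 was at 10.8, 8.79 and 7.33 TPM against 10.8, 11.1 and 11.5. Its first control library reached the level of the HOTAIR-N siRNA libraries in TPM though not in CPM, and the call was the least firm of the 5 (log2 fold change 0.35, SE 0.11, adjusted p = 0.0157). Without control 1 it rose by 0.54, while it did not pass without control 2 (adjusted p = 0.0645), control 3 (adjusted p = 0.0794) or HOTAIR-N siRNA 3 (adjusted p = 0.0525).

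TP53I3, a quinone oxidoreductase linked to reactive oxygen production, had the steepest rise of the redox genes, from 23.7, 19.9 and 18.4 TPM to 28.8, 34.5 and 30.3 TPM. The rise was 1.54-fold with no overlap (log2 fold change 0.62, SE 0.08, adjusted p = 9.53e-06), and TP53I3 shares 80 bases of exon with FAM228B on the other strand. FDXR, the mitochondrial ferredoxin reductase, was at 54.0, 51.8 and 47.5 TPM against 56.2, 66.7 and 64.0. It rose 1.26-fold, with the groups close but apart (log2 fold change 0.33, adjusted p = 0.00157). TIGAR, which lowers glycolytic flux by breaking down fructose bisphosphate, went from 39.6 ± 2.24 to 43.7 ± 1.90 TPM (log2 fold change 0.18, adjusted p = 0.0120). That small rise did not pass without HOTAIR-N siRNA 1 (adjusted p = 0.0701). CMBL, a carboxymethylenebutenolidase, was at 27.6 ± 2.34 and 26.5 ± 0.263 TPM, with a fold of 0.991 (95% interval 0.909 to 1.08, adjusted p = 0.872).

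SESN1 has a distal start and a proximal start about which its isoforms divide. NM_001199933, from the middle of the 3 starts, was at 4.65, 5.46 and 6.41 TPM in the control libraries and 9.01, 10.0 and 8.87 with HOTAIR-N siRNA. It rose by a log2 fold change of 0.81 (SE 0.14, adjusted p = 0.0132), and its share of the gene went from 49.8% to 65.2%. NM_014454, from the most upstream start, was at 5.43, 6.04 and 4.84 TPM against 5.01, 4.43 and 4.69, and did not pass (log2 fold change -0.15, adjusted p = 0.485). A test of isoform use, which asks directly whether such shares differ, did not pass for SESN1 (adjusted p = 1). So an unequal response of the SESN1 starts was not shown at this depth.

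The cell death and survival genes were mixed, with 2 rises and 4 falls among 8, beside 28.7% and 28.8% of all genes. PERP, a tetraspan membrane protein of desmosomes that is also an apoptosis effector, was at 23.02, 26.1 and 24.2 TPM in the control libraries and 18.2, 16.4 and 17.2 with HOTAIR-N siRNA. It fell to 0.730 of control with a wide gap between the groups (log2 fold change -0.46, SE 0.07, adjusted p = 2.81e-05). PHLDA3, which competes with AKT for membrane lipids, fell from 6.24, 5.84 and 5.02 TPM to 3.73, 4.66 and 4.47 TPM (log2 fold change -0.45, SE 0.11, adjusted p = 0.00312). TP53INP1, a cofactor in apoptosis and autophagy, was one of the lowest in level, at 1.41, 1.54 and 1.3 TPM against 1.00, 0.90 and 1.13. It fell by 0.44 on the log2 scale (SE 0.13, adjusted p = 0.00789). AEN, a nuclease that digests DNA in dying cells, went from 62.8 ± 2.69 to 54.3 ± 1.72 TPM, the smallest fall of the 9 (log2 fold change -0.17, adjusted p = 0.0234). Its call was lost on leaving out any HOTAIR-N siRNA library (adjusted p = 0.0599 to 0.0846).

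The risers of that group were TRIAP1 and ZMAT3. TRIAP1, a small mitochondrial protein that supports lipid transfer and opposes apoptosis, was at 79.0, 87.1 and 87.4 TPM with control siRNA and at 111.2, 106.4 and 106.4 with HOTAIR-N siRNA. The rise was 1.32-fold with no overlap (log2 fold change 0.40, SE 0.06, adjusted p = 5.15e-05). ZMAT3, a zinc finger RNA-binding protein that affects splicing, rose from 10.9, 14.4 and 12.01 TPM to 14.5, 15.8 and 16.1 TPM (log2 fold change 0.36, SE 0.08, adjusted p = 0.000798). The gap between its groups was narrow. TP53I11 did not pass, with a fold of 0.917 (95% interval 0.833 to 1.01, adjusted p = 0.147), and neither did SPATA18, a mitochondrial quality control gene (0.897, interval 0.743 to 1.08, adjusted p = 0.347). For TP53I11 the isoforms of its most upstream start gave 2.28, 3.77 and 2.75 TPM with control siRNA and 4.80, 3.54 and 4.70 with HOTAIR-N siRNA, whereas the second start gave 11.8, 10.3 and 9.65 against 5.22, 8.21 and 6.94. No isoform of TP53I11 passed, and the gene shares 74 bases of exon with TSPAN18 on the other strand.

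GDF15, a secreted cytokine of the TGF-beta superfamily that rises in stress, was at 8.24, 7.18 and 7.23 TPM against 8.78, 9.79 and 7.39. The groups overlapped, and the fold of 1.18 had an interval of 1.00 to 1.40 (adjusted p = 0.108). Which libraries entered decided the call: GDF15 passed without control 1 (log2 fold change 0.33, adjusted p = 0.0360) and without HOTAIR-N siRNA 3 (0.35, adjusted p = 0.0384).

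**Figure D3:**
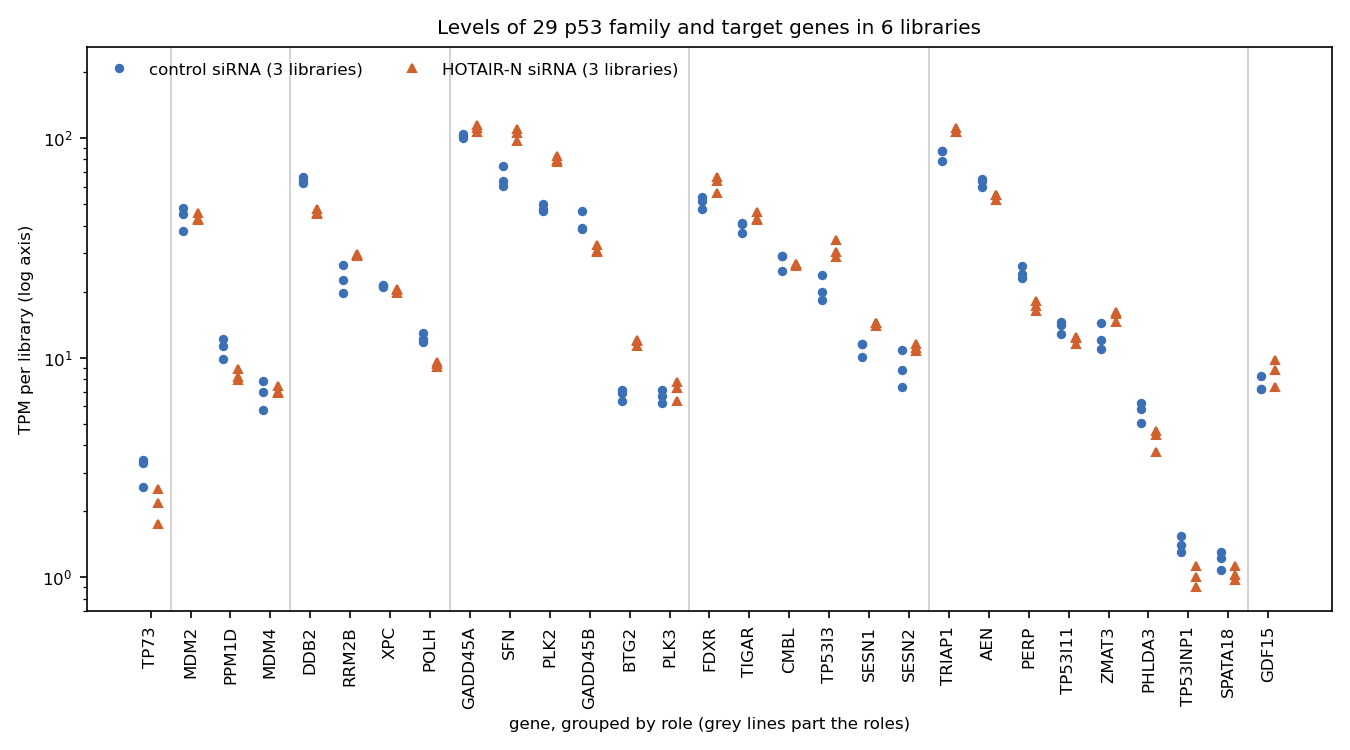
TPM of the 29 tested genes in each of the 3 control siRNA libraries (circles) and 3 HOTAIR-N siRNA libraries (triangles), on a log axis and ordered by role. GADD45A, SFN and TRIAP1 were among the highest, near or above 60 TPM in every library, and TP53INP1 and SPATA18 were the lowest, under 1.6 TPM.

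The 5 genes with a match to the element in the windows searched did not move as a block. FDXR rose, DDB2, AEN and TP73 fell, and MDM2 did not pass, and the TP73 and MDM2 elements lie at starts that gave few of those genes' reads. The log2 fold changes of the fallers were -0.50 for TP73, -0.42 for DDB2, which has the best match in sequence, and -0.17 for AEN. Of the genes with an exact half-site alone, PLK2 rose 1.72-fold and SESN1 rose 1.29-fold. The PLK2 window, chr5:58460037-58460336, was matched to the start of NM_001252226, which had 0 counts in all 6 libraries. The start of the expressed isoform NM_006622, at chr5:58460260, also lies inside this window, though it is not the start the window was built on. The half-site lies downstream of that expressed start, not upstream of it. The window of SESN1 that holds the half-site belongs to the third start, whose isoform NM_001199934 was listed at 0 in 4 libraries and at 0.35 and 0.77 TPM in the others.

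Of the isoforms of the 30 genes 110 were listed and 62 tested, and 8 rose and 5 fell, beside 9.39% of all 32627 isoforms called higher and 10.1% called lower. These counts moved with the processing: 3 rose and 0 fell with a replicate block (7 lower at an unadjusted p under 0.05, edgeR), 11 fell with DESeq2, and 3 fell without control 3. The risers were the main isoforms of BTG2 (log2 fold change 0.84), SFN (0.71), PLK2 (0.79) and TRIAP1 (0.41), and NM_015713 of RRM2B (0.46), NM_147184 of TP53I3 (0.68), NM_152240 of ZMAT3 (0.44) and NM_001199933 of SESN1. The fallers were the main isoforms of PPM1D (-0.36), DDB2 (-0.37), POLH (-0.34) and PERP (-0.44), and NM_001172478 of RRM2B. That minor RRM2B isoform had expected counts of 26.4, 18.3 and 25.4 with control siRNA against 0 in every HOTAIR-N siRNA library, where a count of 0 allows up to 3, against the direction of the gene as a whole. In the test of isoform use by edgeR 4.13% of 7523 genes passed, and of the 16 genes described here that could be tested 0 did. RRM2B came nearest (adjusted p = 0.0971), and its minor isoform was the only 1 of 49 isoforms at an unadjusted p under 0.05.

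The words GACCAAT and ACCAATA, which went with lower values in earlier results of these data, were looked up in the transcripts of the 30 genes (GENCODE release 29, sense strand only; the words overlap by 6 bases, so 1 stretch can hold both). Over 13086 tested genes 10.6% held either word in the 3′ UTR, and their median log2 fold change was -0.25, against 0.04 for genes with neither word in the 3′ UTR or coding sequence. Of the 29 tested genes 7 (24.1%) held a word in the 3′ UTR and 0 in the coding sequence, with medians of -0.16 for the 7 and 0.17 for the other 22. Because the words came from results of these same libraries, none of these medians is a test of the words. In the transcripts searched GACCAAT was present in POLH, PPM1D, SESN1, SPATA18 and TP53INP1, and ACCAATA alone in MDM2 and MDM4. These transcripts differ in length from some isoforms counted by the authors. The MDM2 site lies 7540 bases into a 3′ UTR of 10837, while NM_002392 is 7495 bases long in all and cannot hold it there. Searched 3′ UTRs of ZMAT3, TIGAR and POLH had 1278, 1902 and 1103 bases, in isoforms of 9113, 8225 and 8412. Most of their counted length was not searched, so the groups of 7 and 22 hold for the searched transcripts only. The sites are shown to let the shared word be seen, in capitals.
POLH: caggagtttcaGACCAATatggtgaaacc
PPM1D: ttttcatcccaGACCAATggcattattag
SESN1: ctaagccccagGACCAATggtagacaaaa
SPATA18: ttggtttagttGACCAATgaatgtcaaag
MDM2: attctgttcatACCAATAtgttcctttgt
MDM4: gctgcacctctACCAATAgccttttgaat

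POLH, PPM1D and TP53INP1, each with GACCAAT, fell. SESN1, with the same word 77 bases into its 3′ UTR, rose, and SPATA18, MDM2 and MDM4 did not pass. The other 6 genes that fell, DDB2, PERP, PHLDA3, TP73, GADD45B and AEN, hold neither word in the 3′ UTR or coding sequence searched. The part of the word in these changes was not tested.

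Of 75 other p53 target genes 71 were tested, of which 31 rose, 15 fell and 25 did not pass, with a median log2 fold change of 0.14. That is 43.7% higher and 21.1% lower, beside 28.7% and 28.8% of all genes. The list was drawn up with earlier results of these data known. CDKN1A, which encodes the CDK inhibitor p21 and is the textbook p53 target, was at 135.1, 127.1 and 108.6 TPM in the control libraries and 219.3, 234.0 and 228.1 with HOTAIR-N siRNA. It rose 1.89-fold, where BTG2 rose 1.78-fold (log2 fold change 0.92, SE 0.07, adjusted p = 6.57e-08). PMAIP1, the BH3-only death protein NOXA, went from 7.98 ± 0.986 to 18.3 ± 1.01 TPM (log2 fold change 1.24, adjusted p = 3.24e-08). CYFIP2, an actin regulator and p53 target, went from 1.3 ± 0.0361 to 3.60 ± 0.174 TPM (log2 fold change 1.51, adjusted p = 3.54e-09). E2F7, a p53-induced repressor of cell cycle genes, went against them and fell from 11.7 ± 0.966 to 5.45 ± 0.295 TPM (log2 fold change -1.06, adjusted p = 1.49e-08).

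The 45 genes that encode regulators and partners of p53 were close to the table as a whole, with 11 rises, 15 falls, 19 that did not pass and a median of -0.01. Their shares were 24.4% higher and 33.3% lower, beside 28.7% and 28.8% of all genes. SETD7, a lysine methyltransferase, rose the most, from 5.28, 6.33 and 5.30 TPM to 18.9, 19.7 and 19.8 TPM (log2 fold change 1.96, adjusted p = 4.93e-11). BRD7, a bromodomain cofactor, fell from 89.3 ± 4.62 to 46.7 ± 2.45 TPM (log2 fold change -0.89, adjusted p = 1.19e-08). The deacetylase SIRT1 fell from 29 ± 2.8 to 16.2 ± 0.687 TPM (log2 fold change -0.80, adjusted p = 1.27e-07). The kinase DYRK2 rose from 14.7 ± 0.986 to 22.02 ± 0.324 TPM (log2 fold change 0.62, adjusted p = 5.82e-07).

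SESN2, GDF15 and GADD45A are also known targets of ATF4 and CHOP, factors of the amino acid and endoplasmic reticulum stress responses. Of 25 other genes of those responses 23 were tested, and 6 rose, 14 fell and 3 did not pass, with a median log2 fold change of -0.30. That is 26.1% higher and 60.9% lower, beside 28.7% and 28.8% of all genes. Among those that fell, ATF4 itself went from 352.9 to 275.2 TPM (log2 fold change -0.31, adjusted p = 0.000417). DDIT3, which encodes CHOP, fell from 63.9 to 42.0 TPM (log2 fold change -0.55, adjusted p = 2.67e-05). ATF5 fell from 47.3 ± 5.08 to 15.8 ± 0.960 TPM (log2 fold change -1.52, adjusted p = 1.86e-09), and the biosynthetic enzymes MTHFD2 (-0.62) and ASNS (-0.64) fell as well. CTH, the cystathionine lyase, rose from 16.5 ± 0.954 to 46.0 ± 0.518 TPM (log2 fold change 1.52, adjusted p = 1.55e-10). SESN2 and GADD45A rose, with calls that were lost when certain single libraries were left out, and GDF15 did not pass. The part of either pathway in these values was not tested.

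**Figure D4:**
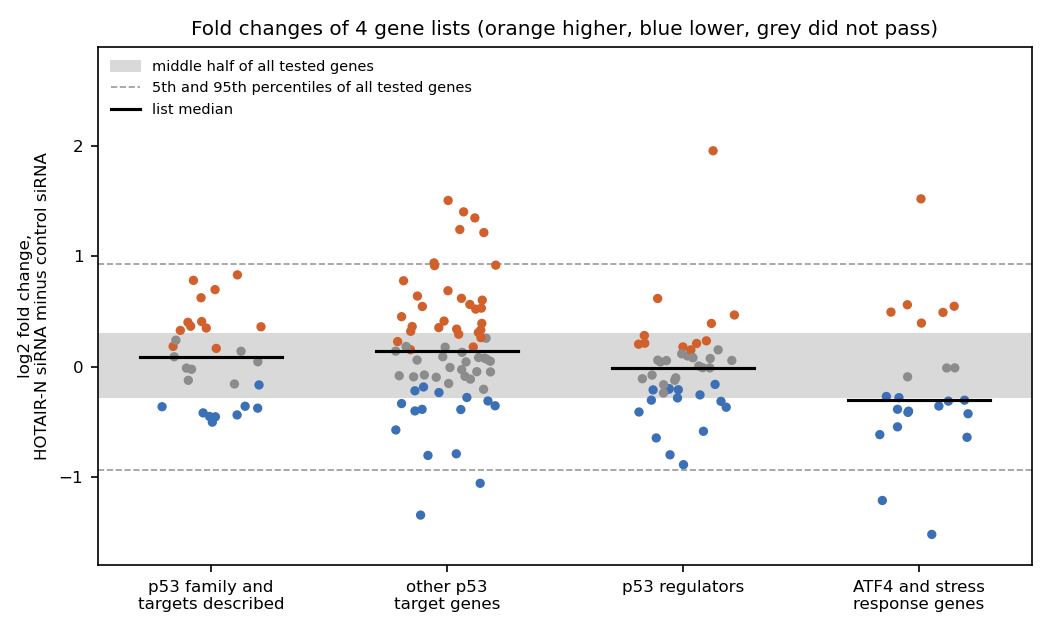
Log2 fold change, HOTAIR-N siRNA minus control siRNA, of each tested gene in 4 lists: the 29 p53 family and target genes, 71 other p53 targets, 45 p53 regulators and 23 ATF4 and stress response genes, coloured by call, with list medians as black lines and the 25th to 75th percentiles of all 15072 genes (-0.28 to 0.30) as a grey band. List medians were 0.09, 0.14 and -0.01, inside the band, and -0.30 for the ATF4 and stress response genes, just below it.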

How the data were processed

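Per the submitters' processing notes, reads were aligned to hg19 with STAR 2.6.0c and quantified with RSEM 1.3.0, and the libraries were made with a stranded total RNA kit, per the labels. The sources used here do not give the strand setting or the annotation release. The authors deposited expected counts and TPM per gene and per isoform, and the percent of a gene's level assigned to each isoform. Expected counts were rounded and fitted over all genes with edgeR 4.0.16 (R 4.3.3): low counts were filtered by group, libraries scaled by TMM, and groups compared with the quasi-likelihood test, with Benjamini-Hochberg adjustment over all genes (threshold 0.05). Isoforms were fitted the same way. A second test asked for a fold above 1.5. The 95% intervals use the SE and a normal quantile. The isoform use test (edgeR) was added after values were seen. Scripts were tested on simulated data. DESeq2 1.42.0 and limma 3.58.1 served as alternatives.

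All 30 genes are named. Of other lists, HOTAIR, CDKN1A, ATF4, DDIT3 and the 4 called genes with the smallest p are named. Of isoforms, those called and the most abundant ones described are named. The genes and lists were chosen with earlier results of these data known. The NM isoform names are those of the deposited tables. Promoters are from RefSeq on GRCh38.p14 and transcripts from GENCODE release 29, not the authors' build; no coordinate was converted.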

Additional observations from a re-analysis of the deposited data

How the results depend on the processing

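Under 14 other settings (3 scalings, 2 filters, DESeq2, limma-voom, a replicate block and each library left out in turn) between 10 and 13 of the 29 genes rose and 8 or 9 fell, and 24 kept their call under every setting. Of 406 single values, 386 kept direction and side of the threshold, 13 lost the call, 2 gained it and 5 turned sign. Those 5 were near 0: MDM2 without control replicate 1 (-0.03 to 0.0906 over the left-out libraries), and CMBL at 0.0098 with upper-quartile scaling, 0.0086 with unscaled library sizes, 2e-04 with the stricter filter and without control replicate 3 (-0.0608 to 0.0277 over the left-out libraries). Past a fold of 1.5, DESeq2 called 1 gene (PLK2), and 3 passed without control replicate 1 (SFN beside BTG2 and PLK2). Isoform calls were less stable: with the replicate block 3 isoforms rose and 0 fell (7 at an unadjusted p under 0.05, edgeR), with DESeq2 11 fell, and with 1 library left out 3 to 5 fell. Over all isoforms the block called 2012 and DESeq2 10043, against 6362. Replicate numbers did not pair the libraries (correlations of deviations -0.12, 0.02 and -0.04), and with the block 7984 of all genes were called, against 8672, while 11 of the 29 rose and 8 fell, GADD45A (adjusted p = 0.0698) and AEN (adjusted p = 0.0700) losing their calls. With 3 libraries a group, small changes such as those of PLK3 and SPATA18 could not be told from none. The causes of these differences were not tested.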
